A study of Mus musculus with 2 samples.

Results

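The 10 genes described here encode receptors through which microglia sense their surroundings in the developing mouse brain, and the ligands that other brain cells present to them. They were selected by symbol out of 32285 genes in the count tables. The receptors were Csf1r, Cx3cr1, Tgfbr1, P2ry12 and Cd200r1, and the ligands were Csf1, Il34, Cx3cl1, Tgfb1 and Cd200. All 10 symbols were found once, with between 119 unique molecular identifiers (UMIs, the count of captured mRNA molecules) for Cd200r1 and 16042 for Tgfbr1 over all retained cells. Their levels were read in marker-gated microglia, neurons, progenitors, vascular cells and fibroblasts.

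The study dissociated the dorsal telencephalon, the tissue that builds the cerebral cortex, of mouse embryos at embryonic day 16.5 and profiled single cells with droplet-based 3' RNA sequencing. It was designed around Dot1l, a histone methyltransferase gene, deleted in Emx1-Cre-expressing cortical cells. The 2 libraries used here carry the genotype label WT and are named WT replicate 1 and WT replicate 6, whereas conditional knockout samples were not analysed here. The labels do not say whether the WT embryos carried a Cre or floxed allele, give no strain, and name the tissue as brain hemispheres.

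Microglia are the resident macrophages of the brain and arise from yolk-sac precursors. Their survival depends on the kinase receptor CSF1R, which binds the cytokines CSF1 and IL-34. TGF-beta 1, signalling through a receptor complex that includes TGFBR1, is known for maintaining microglial identity. The chemokine fractalkine, encoded by Cx3cl1, is membrane-bound or shed and is read by CX3CR1, the purine receptor P2RY12 senses extracellular ADP and ATP, and CD200 on other cells restrains myeloid cells that carry its receptor CD200R1.

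On the GRCm38 assembly (mm10), RefSeq places Cx3cr1 at chr9:120048683-120068296, P2ry12 at chr3:59216271-59262985, Tgfbr1 at chr4:47353222-47414926 and Cd200r1 at chr16:44765736-44794977. Among the ligands, Csf1 lies at chr3:107741048-107760469, Il34 at chr8:110741829-110805949, Cx3cl1 at chr8:94772180-94782427, Tgfb1 at chr7:25687002-25705077 and Cd200 at chr16:45382111-45409060. Promoter windows running from 250 bases before to 50 bases after a transcription start were found in the RefSeq table for 7 of the 10 genes. P2ry12 and Cx3cr1 are shown as receptor genes with their highest level in microglia, and Cd200 as a ligand gene with its highest level in Cajal-Retzius cells. Capitals mark the ETS core AGGAAG and the GC box GGGCGG, searched on both strands, which did not overlap each other in these windows.
P2ry12, chr3:59262936-59263235, minus strand: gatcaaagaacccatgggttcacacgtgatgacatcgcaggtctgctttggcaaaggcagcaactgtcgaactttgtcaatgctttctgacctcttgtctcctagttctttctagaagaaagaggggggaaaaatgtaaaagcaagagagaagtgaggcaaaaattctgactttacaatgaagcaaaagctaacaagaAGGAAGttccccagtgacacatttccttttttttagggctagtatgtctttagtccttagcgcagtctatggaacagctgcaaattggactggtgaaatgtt
Cx3cr1, chr9:120068247-120068546, minus strand: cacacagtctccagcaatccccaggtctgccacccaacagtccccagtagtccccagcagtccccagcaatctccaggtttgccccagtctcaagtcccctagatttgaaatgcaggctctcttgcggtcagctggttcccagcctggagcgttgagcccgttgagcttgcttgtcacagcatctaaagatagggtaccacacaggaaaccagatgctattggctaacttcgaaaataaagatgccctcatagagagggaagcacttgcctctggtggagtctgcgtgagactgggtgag
Cd200, chr16:45409004-45409303, minus strand: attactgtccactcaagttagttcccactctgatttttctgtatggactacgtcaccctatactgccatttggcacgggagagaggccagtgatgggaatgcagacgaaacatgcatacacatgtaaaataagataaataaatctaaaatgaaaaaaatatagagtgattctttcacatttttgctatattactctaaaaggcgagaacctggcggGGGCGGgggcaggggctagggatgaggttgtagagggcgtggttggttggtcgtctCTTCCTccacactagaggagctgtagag

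The ETS core occurred in the P2ry12 and Cd200 windows and not in the Cx3cr1 window, and the GC box was found among these only in the Cd200 window. These letters are common: 35.4% of all 32851 promoter windows of this length hold the ETS core on either strand and 35.7% hold the GC box. Of the 8 windows that belong to the 10 genes, 6 hold the ETS core and 5 the GC box.

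The libraries held 14136 and 13046 cells with 74930397 and 68964234 UMIs, and 59 cell barcodes occurred in both. After cells outside the range of 1500 to 60000 UMIs, or with 10% or more of their UMIs from mitochondrial genes, were removed, 8139 and 8209 cells were left, of which 81.1% and 82.7% fell into one of 11 classes. The microglia gate held 91 and 105 cells. Its 8 gate markers, such as C1qa and Trem2, summed to 12632 and 12720 UMIs per 1000000 UMIs of the class (CPM), against at most 68.2 CPM in any other class and library. Markers of other types were low in the gate but not at 0, with summed excitatory markers at 460 and 257 CPM and summed radial glia markers at 351 and 247 CPM. Neutrophil and lymphocyte markers were found at 2 or more per cell in no cell of the gate, and monocyte markers in 2 cells of WT replicate 6. Several gates were less clean. Cells with 3 or more markers of another class made up 60.9% and 60.8% of mural cells, 79.5% and 65.8% of fibroblasts, 71.0% and 80.8% of oligodendrocyte precursors, 56.5% and 50% of Cajal-Retzius cells, 39.8% and 27.0% of endothelial cells and 18.7% and 21.0% of the microglia gate. For this count, and where such cells are left out below, radial glia, intermediate progenitors and excitatory neurons were taken as a single class. No doublets were removed, and none of the 10 genes was used for gating.

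Levels are given as CPM for WT replicate 1 and then WT replicate 6, means with the SD over n = 2 libraries, and 95% Poisson intervals where stated cover counting error only. Differences are log2 differences from edgeR's quasi-likelihood test on the summed UMIs of each class and library, with Benjamini-Hochberg adjustment over all genes tested. P-values therefore set a class difference against the spread between 2 libraries, estimated with information shared across genes. The library was not entered as a block in these tests. The labels do not say whether each library is 1 embryo. Levels are compared between classes for each gene, and CPM of different genes are not ranked against each other. A gene that met the filter on low counts through only 1 of the 2 classes compared lay below its cutoff in the other. This selection favours a difference, although not every such gene was called. Counts of called genes are therefore given for those that met the filter in both classes, and the others are named beside them.

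**Figure D1:**
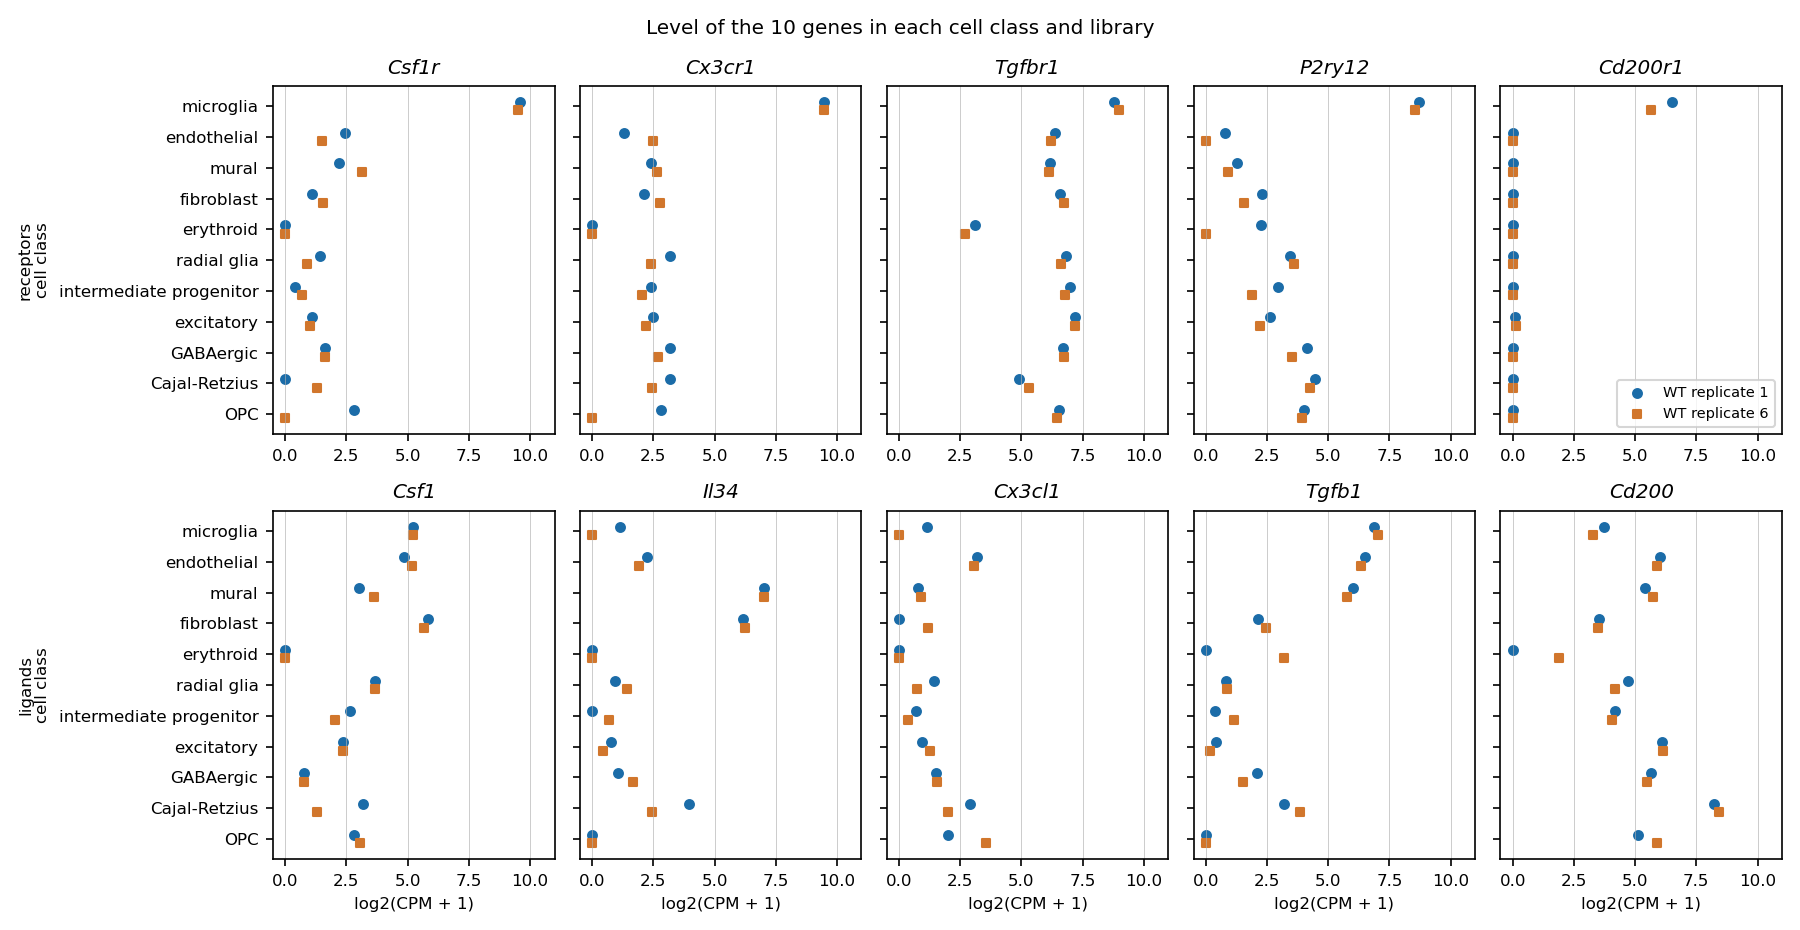
Level of each gene in each of 11 cell classes as log2(CPM + 1), with 1 point per library (circles, WT replicate 1; squares, WT replicate 6). The 5 receptors (upper row) peak in microglia, whereas the ligands (lower row) peak in different classes: Csf1 in fibroblasts, Il34 in mural cells, Tgfb1 in microglia and Cd200 in Cajal-Retzius cells. Microglia here are the whole gate, including the macrophage-like cells described further on.

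Each of the 5 receptor genes had its highest class level in microglia in both libraries, but they differed in how far the next class lay below. Csf1r, the colony-stimulating factor receptor, was measured at 778 and 726 CPM in microglia (752 ± 36.6 CPM, SD, n = 2), from 642 and 584 UMIs. The next class, mural cells, was at 3.53 and 7.81 CPM. Microglia thus lay above every other class without overlap, and they held 88.5% of all Csf1r UMIs in gated cells. Below microglia, mural, endothelial, oligodendrocyte precursor and GABAergic classes followed in an order whose neighbours overlapped between libraries.

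Cx3cr1, the fractalkine receptor, reached 719 and 704 CPM in microglia (711 ± 10.4 CPM, SD, n = 2). All other classes were at or below 8.20 CPM, and their neighbours in the order largely overlapped. Microglia held 67.9% of the Cx3cr1 UMIs, with the remainder spread mostly over the far more numerous neurons and progenitors. Cd200r1, the inhibitory receptor for CD200, was the most restricted of the receptors by count, with 113 of 118 UMIs in gated cells (95.8%) in microglia. The 5 UMIs outside microglia were all in excitatory neurons, and 9 classes had none. Its level over the whole microglia gate was 89.7 and 48.5 CPM. Most of its UMIs there lay in the macrophage-like cells described further on, and the other microglia were at 13.5 and 14.1 CPM.

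P2ry12, the purine receptor, was at 420 and 377 CPM in microglia (399 ± 30.9 CPM, SD, n = 2). Cajal-Retzius cells, early neurons of the cortical surface, came next at 21.1 and 17.8 CPM. The GABAergic, oligodendrocyte precursor and radial glia classes followed at between 9.87 and 16.3 CPM, and microglia held 45.3% of the UMIs. Tgfbr1, the type I TGF-beta receptor, was the broadest: 440 and 505 CPM in microglia (472 ± 45.9 CPM, SD, n = 2), 144 and 147 CPM in excitatory neurons, and 101.6 and 107 CPM in GABAergic neurons. Intermediate progenitors overlapped radial glia, which in turn overlapped GABAergic neurons. Excitatory neurons held 57.9% of the Tgfbr1 UMIs and microglia 5.29%. The microglial level pools 2 unlike kinds of cell. The macrophage-like cells described further on were at 103 and 116 CPM, below excitatory neurons, and the other microglia at 854 and 853 CPM.

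Single cells of the microglia gate usually carried more than one receptor. Csf1r and Cx3cr1 were detected together in 65 of 91 and 66 of 105 cells, and neither was detected in 12 and 24 cells. Those cells were shallow, with a median of 1974 and 2065 UMIs against 8844 and 7957 in the others. Csf1r was detected in 81.3% and 71.4% of microglia at a median depth of 8038 and 6903 UMIs, and in 1.07% and 0.881% of excitatory neurons at 8791 and 7936.5 UMIs. Scaled to 1500 UMIs per cell, the microglial shares were 59.0% and 50.8%. Counting all 5 receptors, 36 and 38 cells had 4 of them and 12 and 9 cells had all 5.

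Microglia were compared with neurons to ask which side of each receptor and ligand pair they carry. In this comparison 47.2% of all 16652 genes tested passed an adjusted p of 0.05 (22.6% higher and 24.6% lower in microglia), and all 7 of the 10 genes that met the filter in both classes were called, 6 higher and 1 lower. Their median log2 difference was 5.88, against −0.24 over all genes tested. Il34 and Cx3cl1 met the filter through neurons and Cd200r1 through microglia. Csf1r was higher by a log2 difference of 9.16 (SE 0.17, adjusted p = 2.11e-08) and Cx3cr1 by 7.24 (SE 0.20, adjusted p = 8.75e-08). P2ry12 was higher by 5.88 (SE 0.21, adjusted p = 3.63e-07), and Tgfbr1 by a smaller 1.88 (SE 0.13, adjusted p = 1.14e-05). That Tgfbr1 difference pools macrophage-like cells, whose level lay below that of neurons, with other microglia, whose level lay above it. Cd200r1 was higher by 10.06 (SE 0.46), set against only 5 neuronal UMIs.

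The receptor genes also exceeded each of the other main classes. Against progenitors, 4 of the 5 genes that met the filter in both classes were called, all higher in microglia, where 42.8% of all genes were called, 22.9% higher and 19.9% lower. Csf1r, Tgfb1 and Cd200r1 met it through microglia. Against vascular cells, 4 of 4 were called, 3 higher and 1 lower, with a background of 34.5% (17.4% higher and 17.1% lower). Csf1r, Cx3cr1, P2ry12 and Cd200r1 met it through microglia and Il34 through vascular cells. Against fibroblasts, 1 of 3 was called, higher in microglia, with a background of 40% (20.1% higher and 19.9% lower). The other 6 genes tested met it through 1 class.

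In the order of progenitors, vascular cells and fibroblasts, the log2 differences of microglia were 9.84, 7.57 and 8.94 for Csf1r, the 3 classes lying at or below 4.91 CPM. They were 7.35, 7.69 and 7.33 for Cx3cr1. P2ry12 gave 5.87, 9.01 and 7.07, and Tgfbr1, which every class carried, gave 2.43, 2.85 and 2.30. All were called, but only Tgfbr1 met the filter on low counts in both classes throughout. Cx3cr1 and P2ry12 did so against progenitors alone, and Csf1r in none of these comparisons. Among the ligands, Tgfb1 was higher in microglia by 7.56, 0.95 and 5.01, all called, though it met the filter in both classes only against vascular cells. Csf1 gave 2.30, 1.03 and −0.48, the last not called. Cd200 gave −0.60, −2.18 and 0.05, of which the second was called. Cx3cl1 was not tested in these 3 comparisons, nor Il34 against progenitors, because of low counts. Cd200r1 had 0 UMIs in progenitors, vascular cells and fibroblasts. Taking 3 counts over a class as the upper limit, its level over the whole microglia gate was at least 439.7-fold higher than in progenitors. It was at least 116-fold higher than in vascular cells and at least 77.3-fold higher than in fibroblasts. Macrophage-like cells held most of its UMIs in the gate, and no limit was derived for the other microglia.

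**Figure D2:**
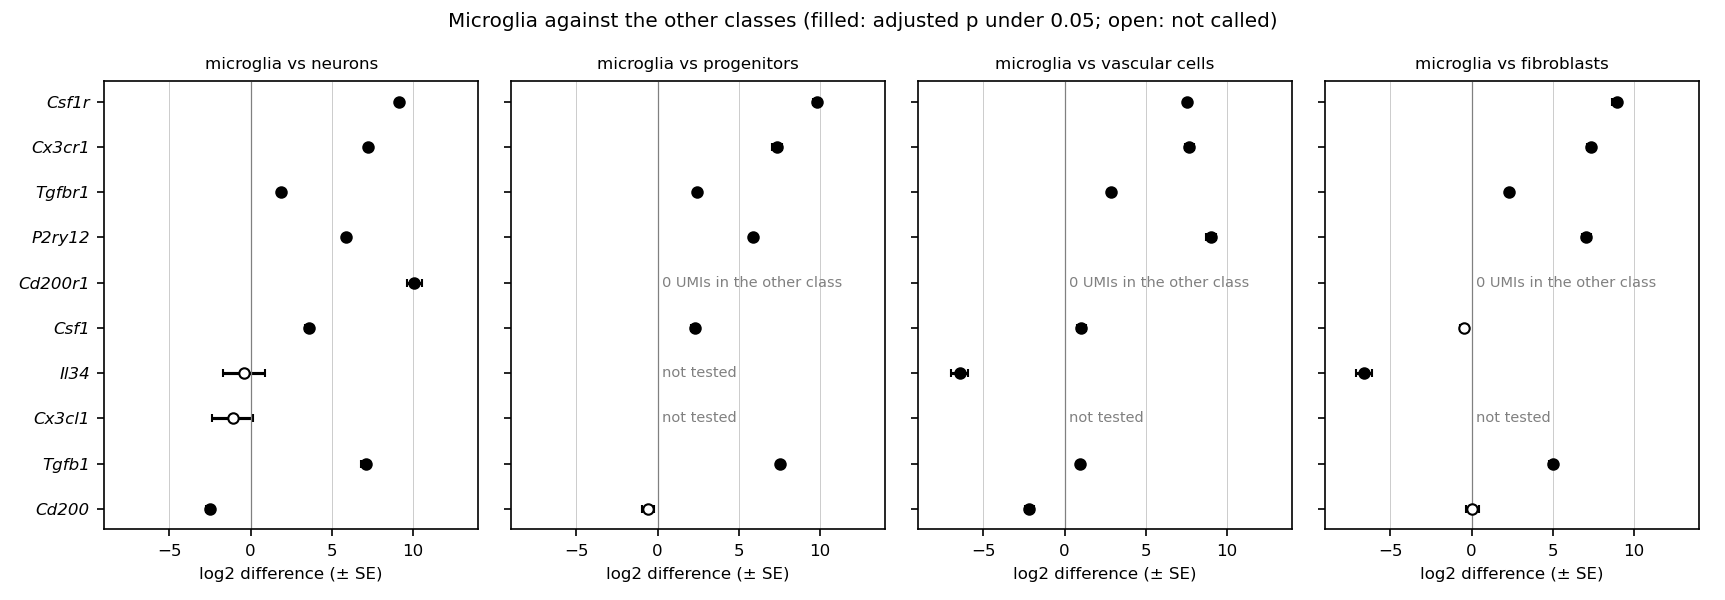
Log2 difference of microglia minus neurons, progenitors, vascular cells or fibroblasts (x axis, ± SE from edgeR, n = 2 libraries per class) for the receptors and then the ligands; filled points passed an adjusted p of 0.05, and Cd200r1 is not drawn where the other class had 0 UMIs. Every receptor drawn lies to the right of 0 in all 4 panels, Il34 lies at −6.45 and −6.62 against vascular cells and fibroblasts, and Cd200 at −2.52 against neurons.

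The 2 ligands of CSF1R had different maps. Il34, the cytokine interleukin-34, was highest in mural cells, the pericytes and smooth muscle cells that wrap vessels, at 128.4 and 127.6 CPM (128 ± 0.558 CPM, SD, n = 2). Fibroblasts of the brain coverings followed at 70.3 and 75.3 CPM. The groups did not overlap, although the fibroblast gate carried summed mural markers at 1170 and 985 CPM and the mural gate carried fibroblast markers at 495 and 555 CPM, and the part of these cells in either level was not tested. These 2 classes together held 329 and 243 of the Il34 UMIs, 48.4% and 35.7% of those in gated cells.

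In neurons Il34 was close to the limit of counting, at 0.820 and 0.874 CPM, and microglia had 1 UMI in all. Il34 was higher in vascular cells than in neurons by 6.27 (SE 0.14, adjusted p = 1.42e-08) and higher in fibroblasts than in neurons by 6.39 (SE 0.17, adjusted p = 7.5e-09). Within the vessel wall, endothelial cells were lower than mural cells by a log2 difference of −5.20 (SE 0.27, adjusted p = 1.18e-06), at 3.70 and 2.75 CPM. Between neurons and microglia no difference was detectable at this depth (log2 difference −0.40, SE 1.30).

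Csf1, the other ligand, was spread over more classes. Fibroblasts were highest at 55.8 and 49.6 CPM (52.7 ± 4.41 CPM, SD, n = 2). Microglia followed at 36.4 and 36.1 CPM and endothelial cells at 28.1 and 34.9 CPM. Radial glia, the neural stem cells, were at 11.7 CPM in both libraries, excitatory neurons at 4.14 and 4.17 CPM and GABAergic neurons at 0.709 and 0.724 CPM. These levels did not overlap between the classes named, but 95% Poisson intervals for microglia ran from 24.5 to 51.9 CPM and from 24.1 to 51.8 CPM and covered the endothelial values. Microglia ranked below fibroblasts only as a whole gate. The macrophage-like cells described further on were at 22.0 and 2.63 CPM, and the other microglia at 54.1 and 66.0 CPM.

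In microglia the 59 Csf1 UMIs came from only 10 and 13 cells. Csf1 was higher in microglia than in neurons by 3.58 on the log2 scale (SE 0.24, adjusted p = 1.07e-05). It did not differ detectably between microglia and fibroblasts (log2 difference −0.48, SE 0.22, adjusted p = 0.108). Without macrophage-like cells, an alternative added after the data were seen, this difference was 0.23. Without cells carrying markers of another class it was 0.027, and neither was called. Against vascular cells Csf1 was higher in microglia by 1.03 (SE 0.27, adjusted p = 0.0124), with single-library differences of 1.08 and 0.67 in WT replicates 1 and 6. That call was lost with DESeq2 (adjusted p = 0.170) and when cells with markers of another class were left out (log2 difference 0.51, adjusted p = 0.263). Endothelial cells were higher than mural cells by 1.83 (SE 0.35, adjusted p = 0.00326).

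Cx3cl1, the fractalkine gene, was sparse, with 176 UMIs in all retained cells. By level, endothelial cells were highest at 8.15 and 7.35 CPM, from 11 and 8 UMIs. Excitatory neurons were at 0.939 and 1.41 CPM and GABAergic neurons at 1.89 and 1.90 CPM. By count, however, these neurons held most of the transcripts, with 41.2% of the Cx3cl1 UMIs of gated cells in the excitatory class and 27.3% in the GABAergic class. Oligodendrocyte precursors and Cajal-Retzius cells had 4 and 6 UMIs in all and could not be placed in the order.

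Cx3cl1 was higher in vascular cells than in neurons by 1.56 on the log2 scale (SE 0.38, adjusted p = 0.00812). Of the 2 vascular classes only endothelial cells lay above neurons, which were at 1.23 and 1.55 CPM. Mural cells were at 0.706 and 0.868 CPM, from 1 UMI in each library. Cx3cl1 was not tested between endothelial and mural cells. It was not called between neurons and progenitors (log2 difference 0.68, SE 0.44, adjusted p = 0.219) or between excitatory and GABAergic neurons (log2 difference −0.59, SE 0.31, adjusted p = 0.163). Adam10 and Adam17, the proteases known to shed fractalkine, were both higher in microglia than in neurons, by 0.74 (SE 0.11, adjusted p = 0.000723) and 2.49 (SE 0.18, adjusted p = 1.66e-05). Both were also called higher in vascular cells and in fibroblasts than in neurons. Against either of those classes, microglia were called higher for 1 of the 2. Of all genes tested, 22.6%, 29.2% and 27.2% were higher than in neurons in microglia, vascular cells and fibroblasts.

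Tgfb1, the TGF-beta 1 gene, was measured at 118 and 129 CPM in microglia (123 ± 8.33 CPM, SD, n = 2), at 90.4 and 80.8 CPM in endothelial cells and at 64.2 and 53.8 CPM in mural cells. The library values of these 3 classes did not overlap, which does not cover counting error. The classes held 29.3%, 30.6% and 22.3% of the UMIs. All remaining classes were at or below 13.4 CPM, with Cajal-Retzius cells the highest among them at 8.13 and 13.4 CPM. Microglia thus carried both this ligand and its receptor Tgfbr1. So did endothelial and mural cells, with Tgfbr1 at 77.8 ± 6.19 and 69.9 ± 1.89 CPM (SD, n = 2).

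Tgfb1 was higher in microglia than in neurons by 7.08 (SE 0.27, adjusted p = 4.76e-07), and vascular cells exceeded neurons by 6.22 (SE 0.24, adjusted p = 2.03e-07). Between microglia and vascular cells the difference was 0.95 (SE 0.17, adjusted p = 0.0013), with single-library values of 0.61 and 0.95 in WT replicates 1 and 6, and without the macrophage-like cells described further on it was 0.64 (adjusted p = 0.0626). Endothelial cells were higher than mural cells by 0.58 (SE 0.18, adjusted p = 0.0443). This call did not hold in 5 alternatives, among them DESeq2 (adjusted p = 0.430) and leaving out cells with markers of another class (log2 difference 0.18, adjusted p = 0.662).

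Cd200, the membrane ligand of CD200R1, was the only gene of the 10 called lower in microglia than in neurons. Cajal-Retzius cells carried it at 297 and 348 CPM (323 ± 35.7 CPM, SD, n = 2), from 62 and 58 cells. Excitatory neurons followed at 67.7 and 70.2 CPM, endothelial cells at 63.0 and 57.8 CPM, GABAergic neurons at 48.9 and 44.2 CPM and mural cells at 41.6 and 52.1 CPM. Cajal-Retzius cells stood clear of all other classes, while mural and GABAergic cells overlapped. The library values of excitatory neurons lay above those of endothelial cells, which came from 85 and 63 UMIs, but this does not cover counting error. Microglia were at 12.1 and 8.70 CPM, from 10 and 7 UMIs. Even so, 63.9% of the Cd200 UMIs in gated cells lay in excitatory neurons and only 6.69% in Cajal-Retzius cells.

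Cd200 was lower in microglia than in neurons by a log2 difference of −2.52 (SE 0.20, adjusted p = 2.72e-05) and lower than in vascular cells by −2.18 (SE 0.29, adjusted p = 0.00017). It was higher in neurons than in progenitors by 1.80 (SE 0.13, adjusted p = 4.22e-05). Vascular cells lay slightly below neurons, by −0.26 in log2 units (SE 0.10, adjusted p = 0.0481). That call was lost with libraries entered as a block (adjusted p = 0.0557) and in 4 other alternatives, with adjusted p between 0.0668 and 0.178. Within excitatory neurons, deep-layer neurons, which project below the cortex, were at 104 and 94.6 CPM and callosal-type neurons at 61.6 and 66.4 CPM.

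Neurons were compared with progenitors to ask which of the 10 genes differ between radial glia with intermediate progenitors and neurons. The neuron class pools excitatory cells with GABAergic cells, which arise in the ganglionic eminences and not from cortical progenitors. Of 9 genes tested 3 were called, 2 higher and 1 lower in neurons, where 59.5% of all 17272 genes tested were called, 29.4% higher and 30.1% lower. The share among the 10 genes was thus below the background. Besides Cd200, Tgfbr1 was higher in neurons by 0.42 on the log2 scale (SE 0.08, adjusted p = 0.00325), though the single-library differences were 0.18 and 0.41 in WT replicates 1 and 6. Excitatory neurons, at 146 ± 1.67 CPM (SD, n = 2), lay above both progenitor classes. GABAergic neurons, at 104 ± 3.94 CPM, overlapped radial glia, at 105 ± 9.48 CPM. Csf1 was lower by −1.40 (SE 0.16, adjusted p = 0.000325), at 9.56 and 8.60 CPM in progenitors and 3.09 and 3.22 CPM in neurons, which pool the excitatory and GABAergic levels given above. The progenitor level came mainly from radial glia, at 11.7 CPM. Intermediate progenitors, at 4.14 ± 1.54 CPM (SD, n = 2), overlapped excitatory neurons, at 4.16 ± 0.026 CPM. Csf1r, Cx3cr1, P2ry12, Il34, Cx3cl1 and Tgfb1 were not called, and Cd200r1 was not tested.

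In vascular cells 7 of the 8 genes that met the filter in both classes were called against neurons, 5 higher and 2 lower, with a background of 57.7% (29.2% higher and 28.5% lower). In fibroblasts 5 of 8 were called, 3 higher and 2 lower, with a background of 56.4% (27.2% higher and 29.2% lower). Csf1 was higher than in neurons by 2.62 (SE 0.21) in vascular cells and by 4.04 (SE 0.16) in fibroblasts. In fibroblasts Tgfb1 was higher by 2.02 (SE 0.62, adjusted p = 0.0216), a call lost without the filter on low counts (adjusted p = 0.0701), and Cd200 was lower by −2.60 (SE 0.15). Cx3cr1 was not called in either (log2 differences −0.40 and −0.15), nor were Csf1r (0.11) and Cx3cl1 (−1.23) in fibroblasts, and Cd200r1 was not tested. Besides the ligands above, Csf1r was higher in vascular cells than in neurons by 1.66 (SE 0.36, adjusted p = 0.00433), at 3.98 and 4.91 against 1.40 and 1.32 CPM. Beside this, the microglia gate markers were at 0.540% and 0.390% of their microglial level in endothelial cells and at 0.0950% and 0.0273% in mural cells, while Csf1r was at 0.571% and 0.253% and at 0.454% and 1.08%. The part of microglial RNA in the vascular Csf1r level was not tested.

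Tgfbr1 was lower than in neurons both in vascular cells (log2 difference −0.89, SE 0.09, adjusted p = 7.02e-05) and in fibroblasts (−0.44, SE 0.09, adjusted p = 0.00338). P2ry12 was lower in vascular cells by −3.16 (SE 0.64, adjusted p = 0.00311), resting on 4 vascular UMIs, and met the filter through neurons. In fibroblasts it was lower by −1.25 (SE 0.53, adjusted p = 0.0728). It passed with libraries entered as a block (adjusted p = 0.0234) and in a single fit of all classes (adjusted p = 0.0467). Endothelial cells against mural cells had 1 of 3 genes that met the filter in both called, namely Tgfb1, with a background of 27.6% (14.3% higher and 13.3% lower). Tgfbr1 (log2 difference 0.20, SE 0.17) and Cd200 (0.42, SE 0.21) were not called, Csf1 met the filter through endothelial and Il34 through mural cells, and Csf1r, Cx3cr1, Cx3cl1, P2ry12 and Cd200r1 were not tested.

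Excitatory and GABAergic neurons also differed from each other: 5 of the 7 genes that met the filter in both were called, 3 higher and 2 lower in excitatory neurons, with a background of 45.9% (22.9% higher and 23% lower). Csf1 was higher in excitatory neurons by 2.62 on the log2 scale (SE 0.25, adjusted p = 0.000239). Within that class its UMIs were in callosal-type neurons, at 4.59 and 4.87 CPM, rather than in deep-layer neurons, at 1.61 and 0.654 CPM from 6 and 2 UMIs. Cd200 was higher by 0.66 (SE 0.07, adjusted p = 0.000373) and Tgfbr1 by 0.58 (SE 0.05, adjusted p = 0.000164).

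Tgfb1 and Il34 met the filter through GABAergic neurons, and Cd200r1 was not tested. Tgfb1 was lower in excitatory neurons by −3.31 (SE 0.49, adjusted p = 0.00192), at 0.348 and 0.138 CPM against 3.31 and 1.90 CPM. MGE-type interneurons, born in the medial ganglionic eminence, held 32 of the 42 GABAergic UMIs in WT replicate 1 but 6 of 21 in WT replicate 6. Csf1r and Il34 were lower by −0.84 (SE 0.26, adjusted p = 0.0364) and −1.48 (SE 0.47, adjusted p = 0.0397), both from few UMIs. Each of these 2 calls was lost in 4 alternatives, among them DESeq2 (adjusted p = 0.282 and 0.112), and the Il34 differences of WT replicates 1 and 6 alone were −0.68 and −2.48. Cx3cr1 was not called (log2 difference −0.63, SE 0.23, adjusted p = 0.0628) but passed with libraries entered as a block (adjusted p = 0.00122) and in 5 other alternatives, with adjusted p between 0.0212 and 0.0402.

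**Figure D3:**
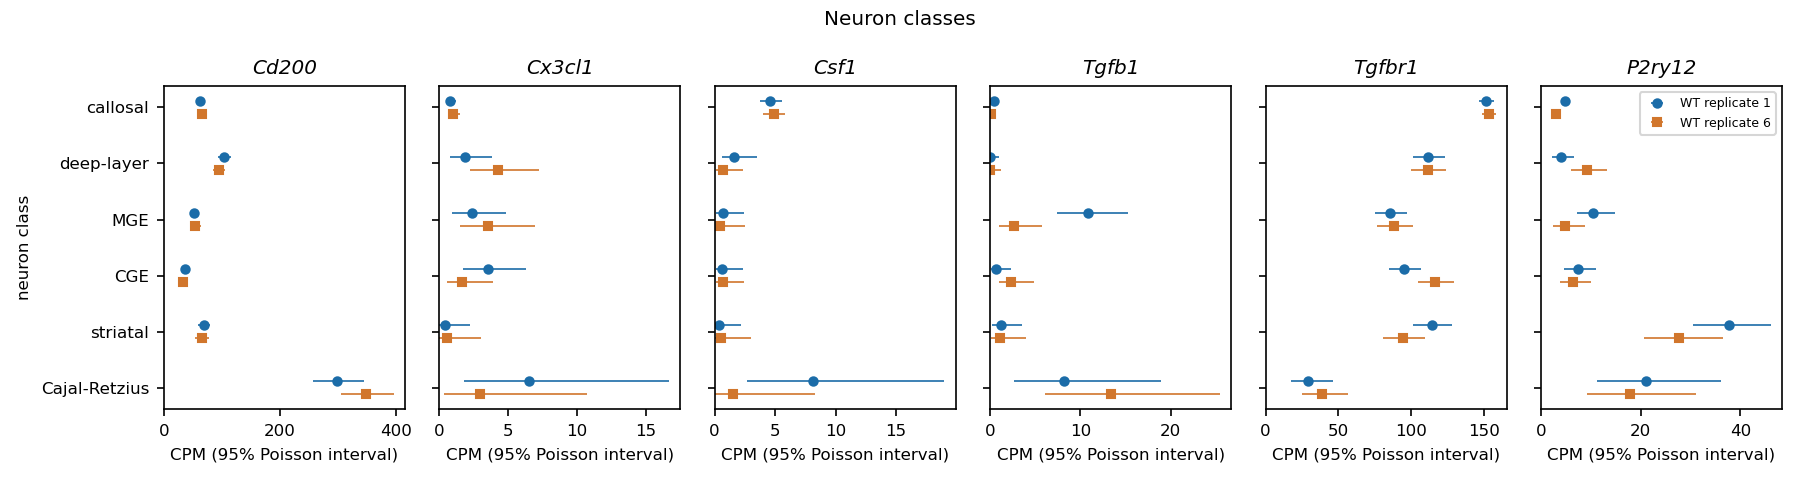
CPM of 6 of the genes (x axis, linear, own scale per gene) in callosal-type, deep-layer, MGE, CGE, striatal and Cajal-Retzius neurons, with 1 point per library and 95% Poisson intervals of counting error. Cajal-Retzius cells stand apart for Cd200 at 297 and 348 CPM, striatal neurons have P2ry12 at 37.8 and 27.8 CPM, and Csf1 is at 4.59 and 4.87 CPM in callosal-type neurons.

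Outside microglia, P2ry12 was lower in excitatory than in GABAergic neurons by −1.52 (SE 0.25, adjusted p = 0.00318), at 5.08 and 3.66 CPM against 16.3 and 10.4 CPM. Striatal-type neurons were highest, with 95 and 51 UMIs and 37.8 and 27.8 CPM, above MGE-type neurons (10.5 and 4.87 CPM) and CGE-type neurons, from the caudal ganglionic eminence (7.34 and 6.39 CPM), in both libraries. A UMI was found in 13.6% and 11.03% of striatal-type neurons at median depths of 6801.5 and 5814 UMIs. The share was 0.971% and 0% in endothelial cells at the greater depths of 10609 and 11754.5 UMIs.

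In GABAergic neurons as a whole P2ry12 stood at 3.88% and 2.76% of its microglial level, while the microglia gate markers stood at 0.0692% and 0.0598% of theirs and Csf1r at 0.263% and 0.287% of its own. Cx3cr1 stood at 1.12% and 0.784% of its microglial level in GABAergic neurons, and P2ry12 at 5.03% and 4.74% in Cajal-Retzius cells. The part of microglial RNA in these levels was not tested. P2ry12 lies inside Med12l (chr3:59005419-59318446), a gene of the opposite strand, and Med12l was itself highest in striatal-type neurons at 135 and 134 CPM, against 43.2 and 33.6 CPM in MGE-type neurons. In microglia Med12l was at 64.2 and 49.7 CPM. Whether Med12l transcripts contributed to the neuronal P2ry12 count was not tested.

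The microglia gate can also hold border-associated macrophages, which sit along vessels and in the meninges, so the gate was split by 6 macrophage markers including Mrc1, Pf4 and Lyve1. Cells with 2 or more of them, 41 and 40 in number, are called macrophage-like, and 50 and 65 cells formed the remainder. Few cells lay near the boundary: over both libraries 27 cells had 1 marker, 9 had 2 and 7 had 3, whereas 88 had none, 25 had 5 and 37 had 6. Macrophage-like cells were deeper, with median depths of 9783 and 9948.5 UMIs against 4540.5 and 4902, and the part of depth in the differences below was not tested. Of the summed UMIs of the gate they supplied 455308 of 825289 in WT replicate 1 and 379788 of 804241 in WT replicate 6.

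Of the 5 genes that met the filter in both kinds of cell, 3 were called, all lower in macrophage-like cells, where 8.92% of all 6583 genes tested were called, 5.24% higher and 3.68% lower. Their median was −0.90, against 0.01 over all genes. Csf1 met the filter through the other microglia and Cd200r1 through macrophage-like cells, and Il34, Cx3cl1 and Cd200 were not tested. Tgfbr1 was at 103 and 116 CPM in macrophage-like cells and at 854 and 853 CPM in the other microglia. The ranges lay far apart, and edgeR gave −2.93 (SE 0.23, adjusted p = 0.000206). Of the 91 Tgfbr1 UMIs in macrophage-like cells 51 came from the 16 cells with 2 or 3 markers.

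P2ry12 was at 156 and 145 CPM against 746 and 584 CPM, lower by −2.11 (SE 0.24, adjusted p = 0.000891). Cx3cr1 was lower by less, at 477 and 516 CPM against 1016 and 872 CPM (log2 difference −0.90, SE 0.21, adjusted p = 0.0299), and when cells with 3 or more macrophage markers were set against cells with none, an alternative chosen after seeing the data, its difference was −1.05 (adjusted p = 0.0507). Csf1r was not called, at 709 and 669 CPM against 862 and 777 CPM (log2 difference −0.22, SE 0.20, adjusted p = 0.601).

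Cd200r1 went the other way, at 151.5 and 86.9 CPM against 13.5 and 14.1 CPM (log2 difference 3.12, SE 0.42, adjusted p = 0.00209). Macrophage-like cells therefore held 69 of 74 and 33 of 39 of the Cd200r1 UMIs of the gate. Csf1 was lower by −2.16 (SE 0.57, adjusted p = 0.0498), resting on 10 and 1 UMIs in macrophage-like cells. Its single-library differences were −1.26 and −4.09 in WT replicates 1 and 6, and the call was lost in 4 alternatives, among them libraries as a block (adjusted p = 0.0905) and DESeq2 (adjusted p = 0.358). Tgfb1 was not called, at 116 and 176 CPM against 119 and 87.2 CPM (log2 difference 0.53, SE 0.29, adjusted p = 0.343).

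**Figure D4:**
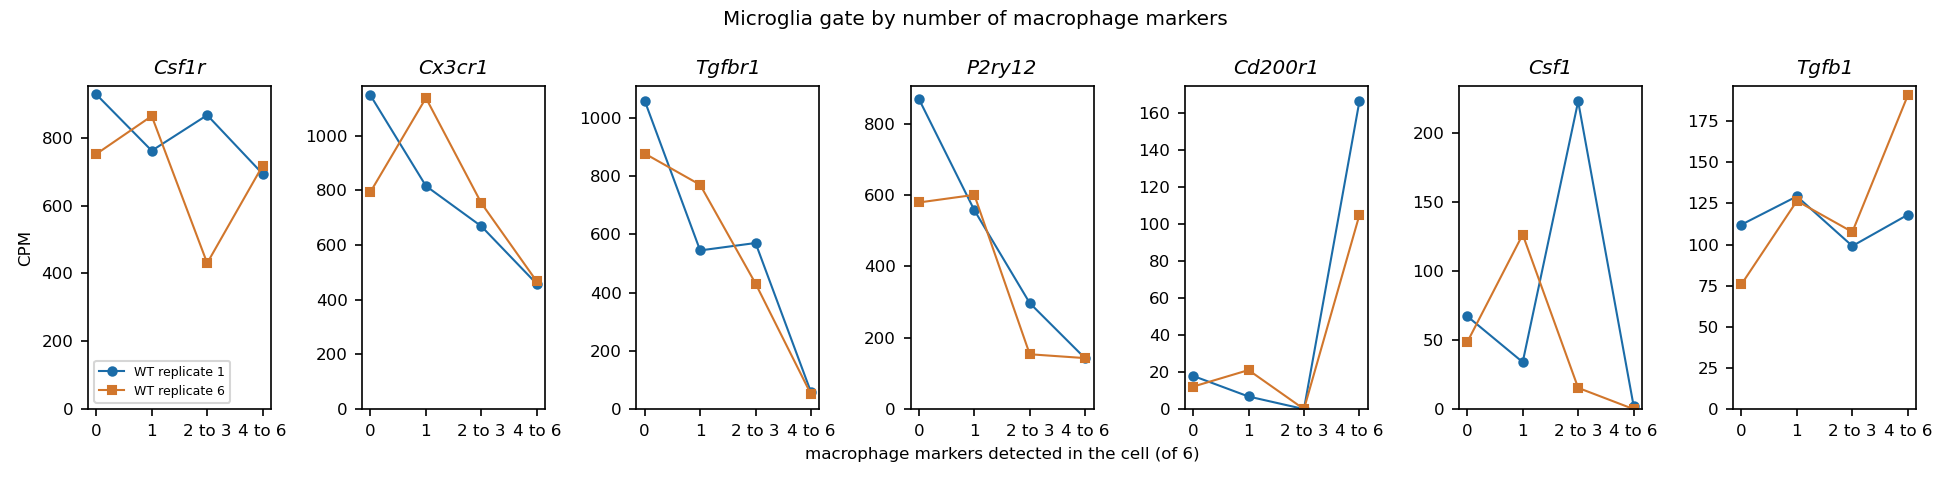
CPM of 7 of the genes in the microglia gate (y axis, linear, own scale per gene) by the number of macrophage markers detected in a cell, with 1 line per library; the bin of 2 to 3 markers holds only 6 and 10 cells. Tgfbr1 goes from 1058 and 877 CPM with no marker to 57.8 and 50.8 CPM with 4 to 6 markers, and Cd200r1 from 17.9 and 12.1 CPM to 166 and 105 CPM.

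The pattern by marker number was the same at its ends. Cells with no macrophage marker had Tgfbr1 at 1058 and 877 CPM and cells with 4 to 6 markers at 57.8 and 50.8 CPM. Cd200r1 was at 17.9 and 12.1 CPM and at 166 and 105 CPM in the same cells. The bin of 2 to 3 markers had too few cells to place, and its Csf1 level of 223 CPM in WT replicate 1 came from 6 cells.

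Beside the pathway list counts below, 22.6% of all genes tested were higher and 24.6% lower in microglia than in neurons. In macrophage-like cells 5.24% were higher and 3.68% lower than in other microglia. List counts outside microglia against neurons were not split by which class met the filter. Of 10 genes of a microglia signature list, all 10 were higher in microglia than in neurons, with 5 of them meeting the filter on low counts only through microglia. Siglech led at 11.41 (SE 0.25), followed by Fcrls at 10.82 (SE 0.28) and Tmem119 at 9.59 (SE 0.44). In macrophage-like cells 7 of the 10 were lower than in other microglia and 3 were not called, with a median of −2.58. All 8 myeloid transcription factor genes were higher in microglia than in neurons, 5 of them meeting the filter in both classes, with Runx1 at 10.18 (SE 0.15), Spi1, which encodes PU.1, at 10.15 (SE 0.19) and Irf8 at 7.43 (SE 0.25). Between the 2 kinds of cell in the gate 1 of the 8 was higher in macrophage-like cells, 2 were lower and 5 were not called.

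In the TGF-beta list, 8 of 16 genes tested were higher in microglia than in neurons, 4 lower and 4 not called. Of the 12 that met the filter in both classes 7 were higher and 4 lower. Nrros, whose product holds latent TGF-beta 1 on myeloid cells, was higher by 8.08 (SE 0.20), Tgfbr2, the type II receptor, by 7.42 (SE 0.17) and the type I receptor gene Acvrl1 by 5.99 (SE 0.54). In vascular cells 13 of 18 were higher than in neurons and 3 lower, with a median of 3.03 against −0.07 over all genes. Of all genes tested there, 29.2% were higher and 28.5% lower. In neurons 0 of 15 were higher than in progenitors and 8 were lower, where 29.4% of all genes were higher and 30.1% lower. The largest differences were Itgav at −3.00 (SE 0.10), Tgfb2 at −2.82 (SE 0.08) and Tgfbr2 at −2.34 (SE 0.26). Itgav, an integrin subunit that activates latent TGF-beta, was at 32.2 and 35.5 CPM in progenitors and 3.96 and 3.82 CPM in neurons. In macrophage-like cells 1 of 9 was higher than in other microglia, namely Nrros, and 2 were lower, namely Smad7 and Skil, both feedback inhibitors of the pathway. Their log2 differences were 1.39, −3.40 and −1.99.

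Among partners of the CSF1R axis, 3 of 7 genes tested were higher in microglia than in neurons and 4 lower, and of the 5 that met the filter in both classes 1 was higher and 4 lower. Csf3r was higher by 8.54 (SE 0.45) and Csf2rb by 7.61 (SE 0.55), both cytokine receptor genes. Ptprz1, which encodes an alternative receptor for IL-34, was lower by −2.31 (SE 0.18). It was lower in neurons than in progenitors by −1.35 (SE 0.07), while Kit and Kitl were higher by 0.94 (SE 0.30) and 0.48 (SE 0.07). Of 9 purine receptor and ectoenzyme genes, 6 were higher in microglia than in neurons and 2 lower, and of the 4 that met the filter in both classes 3 were higher. The largest differences included Adora3 at 8.91 (SE 0.68), resting on 23 microglial and 2 neuronal UMIs, and P2ry13, which is also in the signature list, at 8.58 (SE 0.39). Adora2a had 0 UMIs in microglia and 3.96 and 3.50 CPM in neurons. P2rx7 was lower in neurons than in progenitors by −3.02 (SE 0.31), and Adora1 and Adora2a were higher by 1.94 (SE 0.24) and 1.68 (SE 0.27).

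Of 8 genes for contact-dependent brakes on myeloid cells, only 3 had enough counts for a test. Sirpa, the receptor for CD47, was higher in microglia than in neurons by 6.38 (SE 0.15) and Cd47 itself by 0.87 (SE 0.12). Cd24a was lower by −2.52 (SE 0.14), at 61.8 and 69.6 CPM in microglia and 393 and 389.9 CPM in neurons. It was higher in neurons than in progenitors by 1.87 (SE 0.07), the same direction as Cd200, and Sirpa was lower by −1.03 (SE 0.12).

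Genes with the most similar class pattern were found by Pearson's r of log2(CPM + 10) over the 22 class sums, among 17146 genes. The points share libraries and a dominant class, so r is given as a description. For Csf1r they were Was, Ccl24 and P2ry6 (r = 0.995 for each), for Cx3cr1 Cd68, Selplg and Bank1 (0.991), for P2ry12 Adrb1, Fermt3 and Igsf6 (0.967 to 0.955), and for Cd200r1 Cd84, Fcna and Adam3 (0.9998 to 0.998). For Tgfbr1 they were Wdfy2, Rbpj and Zfp710 (0.952 to 0.934). Among ligands, Il34 was most like Adora2b, Enpep and Rarres2 (0.982 to 0.976), Csf1 like Lrrk1, Ctsh and Smad3 (0.931 to 0.925), and Tgfb1 like Klhl6, Gngt2 and Prdm1 (0.955 to 0.945). Cd200 was most like Arhgap44, March4 and Syt7 (0.910 to 0.889), and the sparse Cx3cl1 like Lor, Cpne8 and Ccdc85a (0.898 to 0.843).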

How the data were processed

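Single cells of 2 WT libraries were measured with 10x Genomics 3' v3.1 chemistry. The authors counted reads with Cell Ranger 7.0.0 on mm10, per the submitters' processing notes, and deposited raw UMI counts per gene and cell, not normalized. The annotation and the use of intronic reads were not given in the sources used here. Filtering to 1500 to 60000 UMIs per cell, with mitochondrial genes below 10% of them, left 8139 and 8209 cells. A cell joined the class whose 8-marker list (7 for erythroid cells) had the largest share detected, with at least 3 markers and no tie. UMIs were summed per class and library and tested with edgeR 4.0.16 (R 4.3.3; TMM, filterByExpr, quasi-likelihood, two-sided, adjusted p under 0.05). Intervals at 95% are Poisson. The fit was tested on simulated data. The count of genes that met the filter on low counts in both classes was added after the data were seen. DESeq2 1.42.0 and the other alternatives are given in the closing section. Classes compared come from the same libraries, which pairs them, and deviations of same-library sums correlated at r = 0.087 to 0.381. All 10 genes are named in each comparison. Of the pathway lists, the 3 called genes with the largest difference are named per list, for microglia against neurons and neurons against progenitors, and the genes named for macrophage-like cells were chosen after their values were seen. The genes and lists were chosen with earlier results of these data known.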

Additional observations from a re-analysis of the deposited data

How the results depend on the processing

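Over the 84 gene and comparison values, alternatives with a test kept direction and call in 655 instances, lost a call in 27, gained one in 8 and reversed 18 values, none of them called. All 85 counts of called genes stayed within 1.5 times. The reversed log2 differences were as follows, and the cause was not tested. With 3000 to 30000 UMIs and under 5% mitochondrial UMIs, Il34 in microglia against neurons was 0.42, Il34 in neurons against progenitors 0.031, Cx3cr1 in vascular cells against neurons 0.053 and Tgfbr1 in endothelial against mural cells −0.027. Without cells carrying markers of another class, Il34 was 0.50 and 0.091 in microglia against neurons and neurons against progenitors, Csf1 in microglia against fibroblasts 0.027, and in fibroblasts against neurons Csf1r was −7.43 and Cx3cl1 0.14. Without macrophage-like cells, added after the data were seen, Csf1 in microglia against fibroblasts was 0.23. Cd200 in microglia against fibroblasts was −0.0071 without TMM and −0.021 with 4 gate markers. In neurons against progenitors, Il34 was 0.16 with 4 gate markers, 0.0025 without a filter on low counts and 0.017 in a single fit of all classes. Cx3cr1 there was 0.0064 with the library as a replicate block, 0.030 without the filter and 0.042 in the single fit.

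Leaving out either library leaves 1 per class and so values with no test: 103 stayed within the spread and 65 moved. All 62 called differences had the same sign in both libraries, and 12 of the 84, none of them called, had the opposite sign in 1 library. The block changed no call other than the 4 given in the report. Scaling matters for the shift of all genes: in microglia against neurons the median log2 difference was −0.24 with TMM and 0.38 with DESeq2. In microglia against progenitors 53.5% of calls were higher in microglia with TMM and 35.5% without, against vascular cells 50.3% and 39.2%, and between excitatory and GABAergic neurons 49.9% and 37.5%. Cx3cl1 and Il34 levels in microglia, at 1 UMI each, are limited by depth.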
